A study of Homo sapiens with 3 samples.

Results

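A set of 10 genes of selective autophagy was followed after RBCK1 depletion, chosen by symbol among the 44591 genes of the table. They are the cargo receptors *SQSTM1* (p62), *OPTN*, *NBR1*, *CALCOCO2* (NDP52) and *TAX1BP1*, the ubiquitin-like genes *MAP1LC3B* and *GABARAPL1*, the initiating kinase *ULK1*, the phosphoinositide effector *WIPI1* and the transcription factor *TFEB*. All 10 were found, and all 10 passed the filter of a mean of at least 1 RPKM, that is, reads per kilobase of gene scaled for library size. *OPTN*, *TAX1BP1*, *MAP1LC3B* and *CALCOCO2* were lower than in si-Control with each siRNA, by 1.48 to 1.97-fold. *SQSTM1*, *NBR1*, *GABARAPL1* and *WIPI1* were lower by smaller amounts, *TFEB* was higher, and *ULK1* was lower with 1 siRNA and higher with the other.

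Caki-1, an established human line of clear cell renal cell carcinoma, was sequenced 48 h after transfection. The groups were a non-targeting siRNA (si-Control), si-RBCK1 #1 (named si-HOIL-1#1 in the sample labels) and si-RBCK1 #2 (si-HOIL-1#2), with 1 library in each of the 3 groups. No replicate error could therefore be computed, no p-value is given, and both comparisons share the single si-Control library. The comparison asks how transcripts of this pathway stood when RBCK1 was depleted. The labels describe RNA freed of ribosomal RNA and directional, paired-end libraries of 1 cell line.

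Autophagy encloses cytoplasm in a double membrane that then fuses with lysosomes. LC3 and GABARAP proteins are joined to the lipid of that membrane, and receptors such as p62 hold ubiquitin-marked cargo on one side and LC3 or GABARAP on the other. RBCK1 (HOIL-1) belongs to the linear ubiquitin ligase complex, and optineurin, the product of *OPTN*, is one of the proteins that bind linear ubiquitin chains.

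The libraries were scaled by 36926834 reads (si-Control), 40442939 reads (si-RBCK1 #1) and 36344428 reads (si-RBCK1 #2). *RBCK1* itself was at 33.3, 9.97 and 12.3 RPKM in the same order. Of the renal markers, *PAX8* was present (82.5 to 124 RPKM), while *CA9* and *PAX2* stayed below 0.1 RPKM in each library. *VIM* was at 664 RPKM in si-Control and 1512 and 1392 RPKM after siRNA #1 and #2, *KRT8* at 65.6, 172 and 238 RPKM, *KRT18* at 95.3, 142 and 172 RPKM and *NDUFA4L2* at 2.12, 0.65 and 0.74 RPKM, and their part in the results was not tested. The leukocyte genes *PTPRC* and *CD3E* and the endothelial gene *PECAM1* were below 0.1 RPKM, *ALB* reached 0.381 RPKM, *COL1A1* 4.68 RPKM, and *CD68*, a lysosomal protein gene, 52.3 RPKM.

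The siRNAs are shown because their seed, the guide's positions 2 to 8 counted from its 5′ end, can pair with other transcripts. Capitals mark the bases of the sense strand that a seed match repeats in a target.
siRBCK1 #1: ggtgcaccttcATCAACAa
siRBCK1 #2: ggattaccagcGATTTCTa
The sense strands match bases 1307 to 1325 and 1749 to 1767 of an *RBCK1* transcript of 2774 nt. A seed match to si-RBCK1 #1 was found in the longest protein-coding transcript (GENCODE v29) of 2 of the 10 genes, *NBR1* and *TAX1BP1*, with 1 site in each. A match to si-RBCK1 #2 was found in 3 of the 10, with 1 site in *OPTN*, 1 in *CALCOCO2* and 2 in *GABARAPL1*. Over 10568 genes that passed the filter and had such a transcript, 23.8% held a match to the first seed and 29.2% to the second, and the part of these matches in any difference was not tested.

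The promoter windows of *MAP1LC3B* and *CALCOCO2* are shown because they hold the sole matches to the 3 motifs searched. The motifs were CACGTG (the E-box that TFEB and its relatives bind), TGACNNNGC (the core of the antioxidant response element bound by NRF2) and TGANTCA (AP-1), each on both strands. The windows are RefSeq's on GRCh38.p14, from 250 bases before to 50 bases after a start site, and all 10 genes matched at least 1 window (17 windows in all). Capitals mark the TGACNNNGC match, which begins 46 bases before the start site of *MAP1LC3B* and, on the other strand, 129 bases before that of *CALCOCO2*.
MAP1LC3B chr16:87392086-87392385, plus strand: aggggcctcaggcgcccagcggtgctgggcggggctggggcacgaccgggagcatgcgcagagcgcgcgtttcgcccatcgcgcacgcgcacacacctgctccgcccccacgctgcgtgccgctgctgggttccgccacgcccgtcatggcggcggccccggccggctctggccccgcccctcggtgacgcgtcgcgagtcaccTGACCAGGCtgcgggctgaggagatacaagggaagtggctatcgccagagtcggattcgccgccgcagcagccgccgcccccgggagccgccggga
CALCOCO2 chr17:48830785-48831084, plus strand: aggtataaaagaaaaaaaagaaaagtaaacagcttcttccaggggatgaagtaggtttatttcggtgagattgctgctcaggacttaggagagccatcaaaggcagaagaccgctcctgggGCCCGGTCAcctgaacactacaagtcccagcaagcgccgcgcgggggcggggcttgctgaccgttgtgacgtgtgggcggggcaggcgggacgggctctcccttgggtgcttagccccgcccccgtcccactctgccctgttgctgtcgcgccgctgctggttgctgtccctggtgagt
TGACNNNGC was thus in 2 of 17 windows, against 13.3% of all 35116 windows. CACGTG was in 0 of 17 windows (7.26% of all) and TGANTCA in 0 of 17 (7.71% of all), which says only that these letters are not in these windows.

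Levels can be set side by side because RPKM is per length. In si-Control the order from the highest was *SQSTM1* (1125 RPKM), *MAP1LC3B* (205 RPKM), *OPTN* (116 RPKM), *TAX1BP1* (60.1 RPKM), *WIPI1* (50.9 RPKM), *GABARAPL1* (49.1 RPKM), *NBR1* (39.8 RPKM), *CALCOCO2* (34.1 RPKM), *ULK1* (8.26 RPKM) and *TFEB* (3.23 RPKM). *SQSTM1* was the most abundant and *TFEB* the least in all 3 libraries. *TAX1BP1* stood above *WIPI1* and *GABARAPL1* in si-Control and below both after each siRNA. Neighbours in this order could not be set against a replicate spread.

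**Figure D1:**
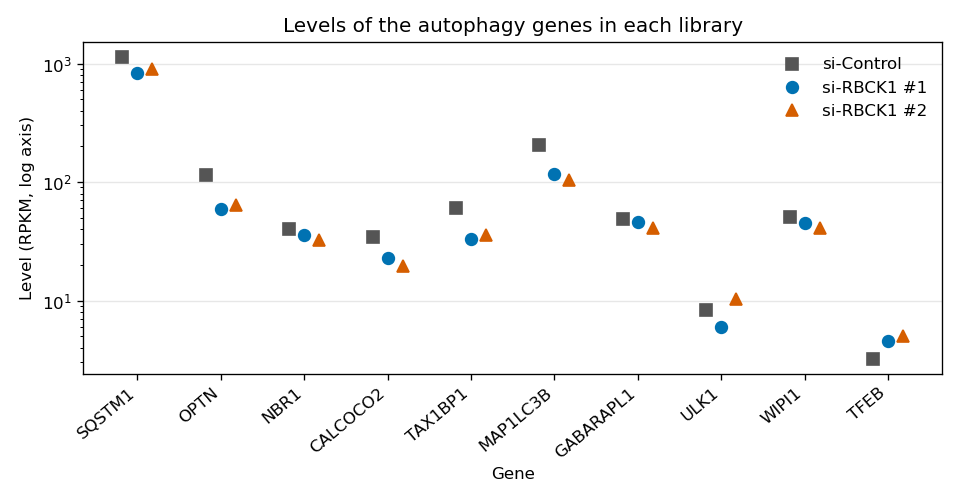
Level of each gene in RPKM on a log axis, with 1 point for each of the 3 libraries. *SQSTM1* lies between 834 and 1125 RPKM, *TFEB* between 3.23 and 5.03 RPKM, and the si-Control point is the highest of the 3 for every gene but *ULK1* and *TFEB*.

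For the differences, log2(RPKM + 1) of each si-RBCK1 library was set against that of si-Control, and a gene was counted when it differed at least 1.5-fold (0.585 on the log2 scale). With si-RBCK1 #1, 3 of 10 genes were at least 1.5-fold lower, where 11.6% of all 12400 genes that passed the filter were, and 0 of 10 were higher, against 12.1%. With si-RBCK1 #2, 4 of 10 were lower, against 9.32% of all genes, and 0 of 10 were higher, against 11.3%. The 3 genes were *OPTN*, *TAX1BP1* and *MAP1LC3B*, and with si-RBCK1 #2 *CALCOCO2* was the fourth. The 10 genes were chosen with earlier results of these data known, and the part of that choice in these counts was not tested. None of the 10 genes reached 2-fold, though *OPTN* passed it with si-RBCK1 #1 when libraries were scaled to equal totals (-1.01) and *MAP1LC3B* with si-RBCK1 #2 at equal totals (-1.01) or equal medians (-1.03). The share of all genes at that limit was 2.91% higher and 3.27% lower with si-RBCK1 #1 and 2.5% higher and 2.27% lower with si-RBCK1 #2. The median log2 ratio of the 10 genes was -0.42 with si-RBCK1 #1 and -0.32 with si-RBCK1 #2, against 0.02 and 0.03 over all genes. *CALCOCO2* with si-RBCK1 #1 (1.48-fold lower) lay just outside the limit, and *TAX1BP1* with si-RBCK1 #2 (1.67-fold lower) was the nearest inside it.

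**Figure D2:**
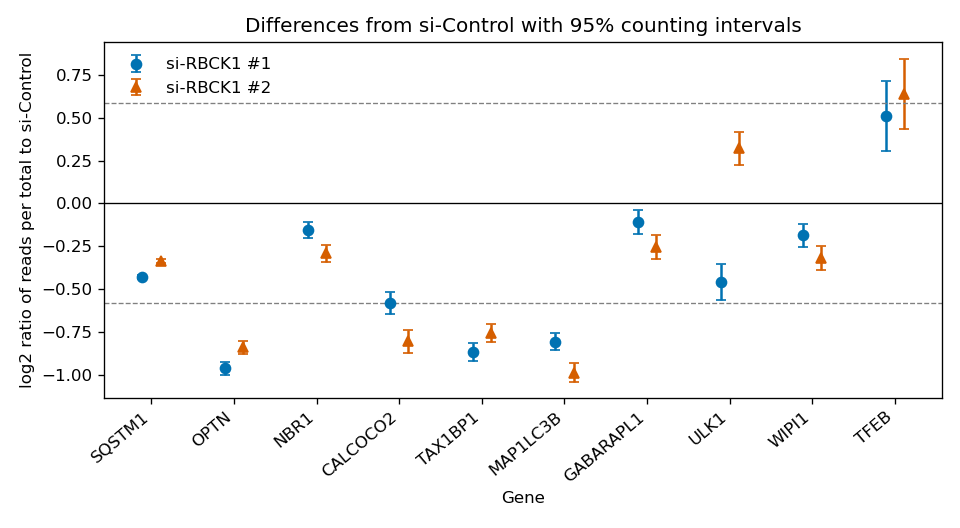
Difference from si-Control on the log2 scale, computed on recovered reads divided by the library total, with 1 point per gene and siRNA. Bars are 95% exact counting intervals, which do not cover differences between cultures, and dashed lines mark 1.5-fold. *OPTN*, *TAX1BP1* and *MAP1LC3B* lie beyond the lower line with each siRNA, and the *ULK1* points lie on opposite sides of 0.

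Among the receptors, optineurin binds ubiquitin and LC3 and serves in the removal of mitochondria and bacteria. *OPTN* (hg19, chromosome 10 from 13142082 to 13180276, plus strand) was at 116 RPKM in si-Control, on 15361 reads. After siRNA #1 it was at 59.4 RPKM, on 8635 reads, and after siRNA #2 at 64.6 RPKM, on 8439 reads. Both si-RBCK1 libraries were thus near 1 level, at 51.3% and 55.8% of si-Control. The log2 ratios to si-Control were -0.95 with siRNA #1 and -0.83 with siRNA #2, and on reads alone the 95% counting intervals ran from -1.0 to -0.92 and from -0.88 to -0.80. A share of 3.87% and 3.95% of all genes had a lower ratio, the lowest rank of the 10 genes with si-RBCK1 #1. Reads here and below are the smallest whole counts that fit the RPKM values, on the shortest gene length that allows them. The true counts of a gene may be a multiple of these.

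*TAX1BP1* encodes a receptor related to NDP52 that also takes part in curbing NF-kB signaling. The gene (chromosome 7, 27778992 to 27869386, plus strand) was at 60.1 RPKM in si-Control (8142 reads). Its level was 32.9 RPKM after siRNA #1 (4881 reads) and 35.6 RPKM after siRNA #2 (4746 reads). These gave log2 ratios of -0.85 (reads interval -0.92 to -0.82) and -0.74 (-0.81 to -0.70), and 5.31% and 5.46% of all genes had lower ones.

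*CALCOCO2* encodes NDP52, a receptor for bacteria and damaged mitochondria, on chromosome 17 from 46908350 to 46942607 (plus strand). Its level in si-Control was 34.1 RPKM, from 4800 reads, against 22.7 RPKM after siRNA #1, from 3510 reads, and 19.5 RPKM after siRNA #2, from 2700 reads. Unlike *OPTN* and *TAX1BP1*, it was lower with si-RBCK1 #2 than with si-RBCK1 #1. Relative to si-Control, the log2 ratios were -0.56 (reads interval -0.65 to -0.52) and -0.78 (-0.88 to -0.74). With libraries scaled to equal totals, the first was -0.62, past the 1.5-fold limit. The log2 ratio between the si-RBCK1 libraries, #2 over #1 on reads, was -0.22 (-0.30 to -0.15).

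*SQSTM1* encodes p62, the receptor that gathers ubiquitinated proteins into bodies and also binds KEAP1. The gene spans 179233388 to 179265078 of chromosome 5 (plus strand). Its level was 1125 RPKM in si-Control (138589 reads), with 834 RPKM after siRNA #1 (112593 reads) and 892 RPKM after siRNA #2 (108129 reads). The log2 ratios of -0.43 and -0.33 were short of the limit, with reads intervals of -0.44 to -0.42 and -0.35 to -0.32, the narrowest of the 10 genes. Genes with lower ratios made up 17.9% and 20.1% of all. Its annotated span shares 565 bases with *MGAT4B* on the other strand, which was at 82.6 RPKM in si-Control and at 106 and 104 RPKM after the siRNAs, and whether reads of the pair were kept apart was not tested.

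*NBR1*, a receptor that resembles p62 and acts with it, was the receptor nearest to its si-Control level. On chromosome 17 from 41322488 to 41363708 (plus strand), it was at 39.8 RPKM in si-Control on 7795 reads, at 35.8 RPKM after siRNA #1 on 7672 reads and at 32.5 RPKM after siRNA #2 on 6264 reads. The resulting log2 ratios were -0.15 (reads interval -0.20 to -0.11) and -0.28 (-0.34 to -0.24).

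Summed over the 5 receptors, the level was 1374 RPKM in si-Control and 985 and 1044 RPKM after siRNA #1 and #2. *SQSTM1* made up 81.8%, 84.7% and 85.4% of it in the 3 libraries. The 4 receptors other than *SQSTM1* summed to 249.6, 151 and 152 RPKM, or 60.4% and 60.9% of si-Control. The share of *OPTN* in the receptor sum was 8.41% in si-Control, 6.03% with si-RBCK1 #1 and 6.19% with si-RBCK1 #2. In bulk RNA, fewer cells that hold a transcript and less of it in each cell cannot be told apart.

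The LC3 and GABARAP genes differed from each other. *MAP1LC3B* encodes LC3B, the form most used to follow autophagosomes, and lies on chromosome 16 from 87425801 to 87438380 (plus strand). It was at 205 RPKM in si-Control, from 8650 reads on a fitted length of 1144 nt, against 2688 nt for its longest protein-coding transcript. After siRNA #1 it was at 117 RPKM, from 5414 reads, and after siRNA #2 at 103 RPKM, from 4291 reads, or 57.1% and 50.4% of si-Control. *MAP1LC3B* thus had log2 ratios of -0.80 (reads interval -0.86 to -0.76) and -0.98 (-1.04 to -0.94), with lower ones for 6.15% and 2.4% of all genes. *GABARAPL1*, of the GABARAP branch, spans 10365489 to 10375727 of chromosome 12 (plus strand) and was at 49.1 RPKM in si-Control (3392 reads), with 45.6 RPKM after siRNA #1 (3445 reads) and 41.2 RPKM after siRNA #2 (2798 reads). Its log2 ratios were -0.11 (reads interval -0.18 to -0.040) and -0.25 (-0.33 to -0.18), with lower ones for 39.6% and 25.7% of all genes. The near copies of these genes were counted at low levels, with *MAP1LC3B2* at most at 0.879 RPKM and *GABARAPL3* at most at 0.0262 RPKM. Whether reads that match a gene and its copy were dropped or counted was not tested.

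The other LC3 and GABARAP genes were not members, and 3 of these 5 passed the filter. *GABARAP* was at 145, 154 and 125 RPKM (log2 ratios 0.09 and -0.21) and *MAP1LC3C* at 1.64, 0.83 and 1.15 RPKM (-0.53 and -0.29), on 36 reads or fewer. Summed over all 7 genes of the family, the level was 470.4 RPKM in si-Control and 390.1 and 329 RPKM after siRNA #1 and #2. *MAP1LC3B* made up 43.5% of it in si-Control, 30.0% with si-RBCK1 #1 and 31.3% with si-RBCK1 #2, so that *GABARAP*, at 30.8%, 39.5% and 37.9%, was the most abundant transcript of the family with each si-RBCK1 siRNA and *MAP1LC3B* with si-Control.

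**Figure D3:**
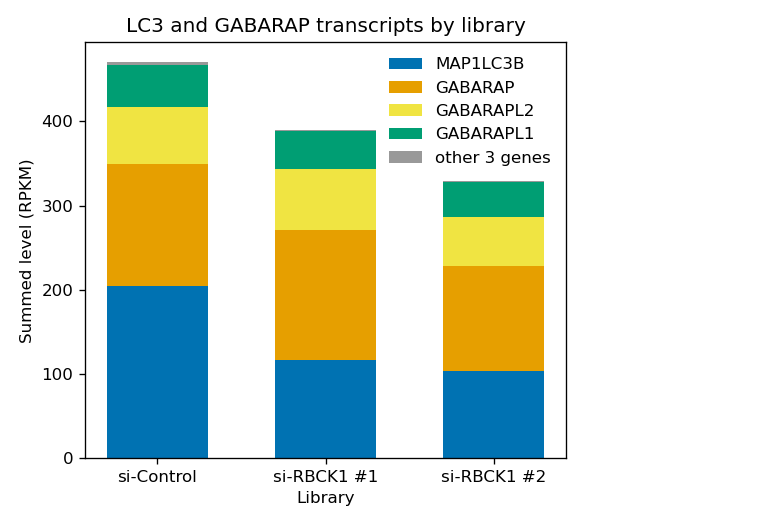
Summed level of the 7 LC3 and GABARAP genes in each library, in RPKM from 0, with 1 colour for each of 4 genes and 1 for the other 3 together. The *MAP1LC3B* part is 205 RPKM high in si-Control and 117 and 103 RPKM high with si-RBCK1 #1 and #2, while the *GABARAPL1* part runs from 41.2 to 49.1 RPKM.

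Of the genes that start autophagy, *ULK1* encodes the kinase that receives signals from mTORC1 and AMPK. On chromosome 12 from 132379279 to 132407707 (plus strand), it was at 8.26 RPKM in si-Control (1592 reads), at 6.0 RPKM after siRNA #1 (1268 reads) and at 10.3 RPKM after siRNA #2 (1959 reads). The control lay between the si-RBCK1 libraries. *ULK1* had log2 ratios of -0.40 (reads interval -0.57 to -0.35) and 0.29 (0.23 to 0.42), so neither reached 1.5-fold against si-Control. Between the si-RBCK1 libraries, #2 over #1, the log2 ratio on reads was 0.78 (0.68 to 0.88), the widest gap between the siRNAs among the 10 genes.

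*WIPI1* binds the phosphoinositide made at the forming membrane. The gene (chromosome 17, 66417422 to 66453665, minus strand) was at 50.9 RPKM in si-Control on 3893 reads, with 44.7 RPKM after siRNA #1 on 3743 reads and 40.8 RPKM after siRNA #2 on 3071 reads. Its log2 ratios were -0.18 (reads interval -0.25 to -0.12) and -0.31 (-0.39 to -0.25). Its whole span of 36244 bases overlaps that of *PRKAR1A* on the other strand in the table, at 84.7 to 91.0 RPKM. The strand setting of the counting is not given in the sources used here, so reads of the 2 genes may not have been told apart.

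*TFEB* encodes the factor that switches on genes of lysosomes and autophagy, among which *SQSTM1*, *MAP1LC3B* and *WIPI1* are known. On chromosome 6 from 41651716 to 41703997 (minus strand), it was at 3.23 RPKM in si-Control, on 326 reads. After siRNA #1 it was at 4.59 RPKM, on 508 reads, and after siRNA #2 at 5.03 RPKM, on 500 reads. It was the sole gene of the 10 above si-Control with each siRNA. The log2 ratios were 0.40 and 0.51, below the 1.5-fold limit. On reads alone, with no pseudocount, they were 0.51 (0.31 to 0.71) and 0.64 (0.44 to 0.85), so that the second passed the limit. Whether TFEB protein is held in the cytoplasm or released to the nucleus depends on its phosphorylation state, which mRNA levels do not measure.

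**Figure D4:**
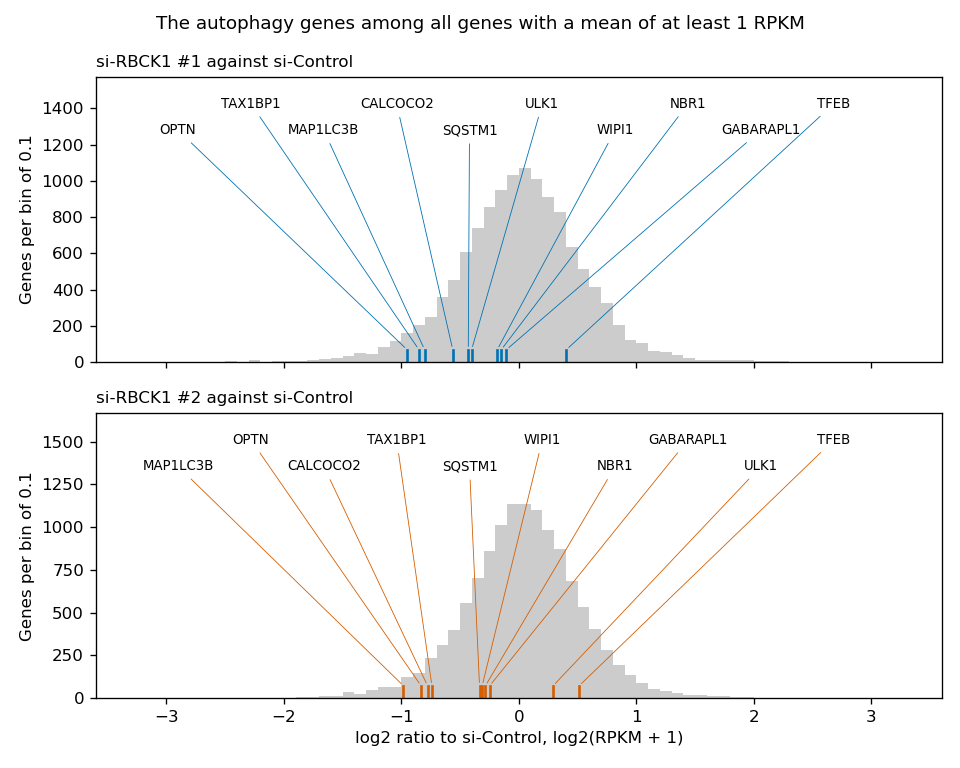
Distribution of the log2 ratio to si-Control over the 12400 genes that passed the filter, in bins of 0.1, for each siRNA. Ticks mark the 10 genes, which run from *OPTN* at -0.95 to *TFEB* at 0.40 with si-RBCK1 #1 and from *MAP1LC3B* at -0.98 to *TFEB* at 0.51 with si-RBCK1 #2.

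The other genes of the pathway were taken from 11 lists that hold 100 genes, 96 of which passed the filter. With si-RBCK1 #1, 12 of 96 were at least 1.5-fold lower (12.5%) and 4 were higher (4.17%), and with si-RBCK1 #2 10 were lower (10.4%) and 4 higher (4.17%). Of all genes, 11.6% and 9.32% were lower by that limit with si-RBCK1 #1 and #2, and 12.1% and 11.3% were higher. The lower shares of the 96 genes were near these, and the higher ones were below. Counts of each list below are to be set beside these shares of all genes. The median log2 ratio was -0.15 with si-RBCK1 #1 and -0.08 with si-RBCK1 #2. The highest and lowest gene of a list are by the mean of both log2 ratios. Genes named below that are not the highest or lowest of their list, or past 2-fold, were picked after their values were seen.

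The list closest in kind to the receptors was of 15 genes for other selective receptors. With si-RBCK1 #1, 3 were at least 1.5-fold lower (20%, against 11.6% of all genes). With si-RBCK1 #2, 1 was lower (6.67%, against 9.32% of all genes). *BNIP3L*, a receptor for mitochondria, was at 48 RPKM in si-Control and at 16.7 and 32.6 RPKM after siRNA #1 and #2 (log2 ratios -1.47 and -0.55). The endoplasmic reticulum receptor *CCPG1* was at 2.24, 1.05 and 0.982 RPKM (-0.66 and -0.71), and *FUNDC1*, of mitochondria, differed with 1 siRNA alone (-0.90 and -0.08). *NCOA4*, the receptor for ferritin, had the highest ratios of the list (0.40 and 0.33). The list's medians were -0.16 and -0.08.

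The enzymes of LC3 conjugation, which join LC3 and GABARAP to lipid, had medians of -0.38 and -0.49 over 10 genes. With si-RBCK1 #1, 1 gene was at least 1.5-fold lower (*ATG5*, -0.59), and with si-RBCK1 #2 there were 5, namely *ATG12* (-1.16), *ATG3* (-1.12), *ATG5* (-0.73), *ATG7* (-0.66) and *ATG4C* (-0.59). *ATG12*, the ubiquitin-like partner of ATG5, was at 19.7 RPKM in si-Control and at 15.2 and 8.24 RPKM after siRNA #1 and #2. *ATG3*, the enzyme that passes LC3 to lipid, was at 38.5, 27.4 and 17.2 RPKM. Both stood lower with si-RBCK1 #2 than with si-RBCK1 #1. *ATG4B*, which trims LC3, had the highest ratios (0.17 and 0.40).

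In the ULK1 complex, *RB1CC1* (FIP200), the scaffold that also binds receptors, had log2 ratios of -0.78 and -0.62 and *ATG13* -0.16 and -0.08, with list medians of -0.43 and -0.15 over 3 genes. In the VPS34 complex, which makes the phosphoinositide that WIPI proteins bind, 2 of 8 genes were at least 1.5-fold lower with si-RBCK1 #1 (*BECN1*, -0.85, and *UVRAG*, -0.65) and 1 with si-RBCK1 #2 (*UVRAG*, -0.63). *AMBRA1* was the highest of that list (0.51 and 0.50), and *BECN1* was at -0.07 with si-RBCK1 #2. Membrane expansion genes differed in direction. *WDR45* was lower (-0.78 and -0.55), while the *WIPI1* relative *WIPI2* (0.59 and 0.67) and the lipid carrier *ATG2A* (0.53 and 0.80) were higher, and the medians over 9 genes were -0.09 and -0.08.

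*TBK1*, the kinase that phosphorylates optineurin and p62, had log2 ratios of 0.08 and 0.02. Of its list of 5 genes, 0 passed 1.5-fold with either siRNA, the lowest being *TANK* (-0.35 and -0.46) and the highest *IKBKE* (0.37 and 0.32). The medians were -0.18 and 0.02. Genes for fusion with lysosomes had medians of -0.10 and 0.02 over 8 genes, with *VAMP8* the highest (0.74 and 0.45) and *STX17* the lowest (-0.59 and -0.40), the sole ones past the limit, both with si-RBCK1 #1.

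Among relatives and regulators of TFEB, *FNIP1*, a partner of folliculin, was the lowest (-0.82 and -0.60) and *RRAGA* the highest (0.42 and 0.41), and *RRAGD* was at -0.71 and -0.47. The medians over 12 genes were -0.15 and -0.05. Of 19 lysosomal genes that carry TFEB sites, 1 was at least 1.5-fold higher with each siRNA, *GLA* (alpha-galactosidase A), at 14.9 RPKM in si-Control and 42.7 and 30.5 RPKM after siRNA #1 and #2 (1.46 and 0.99). The lowest was *SCARB2* (-0.57 and -0.51), 0 of the 19 were at least 1.5-fold lower, and the medians were -0.04 and -0.14.

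**Figure D5:**
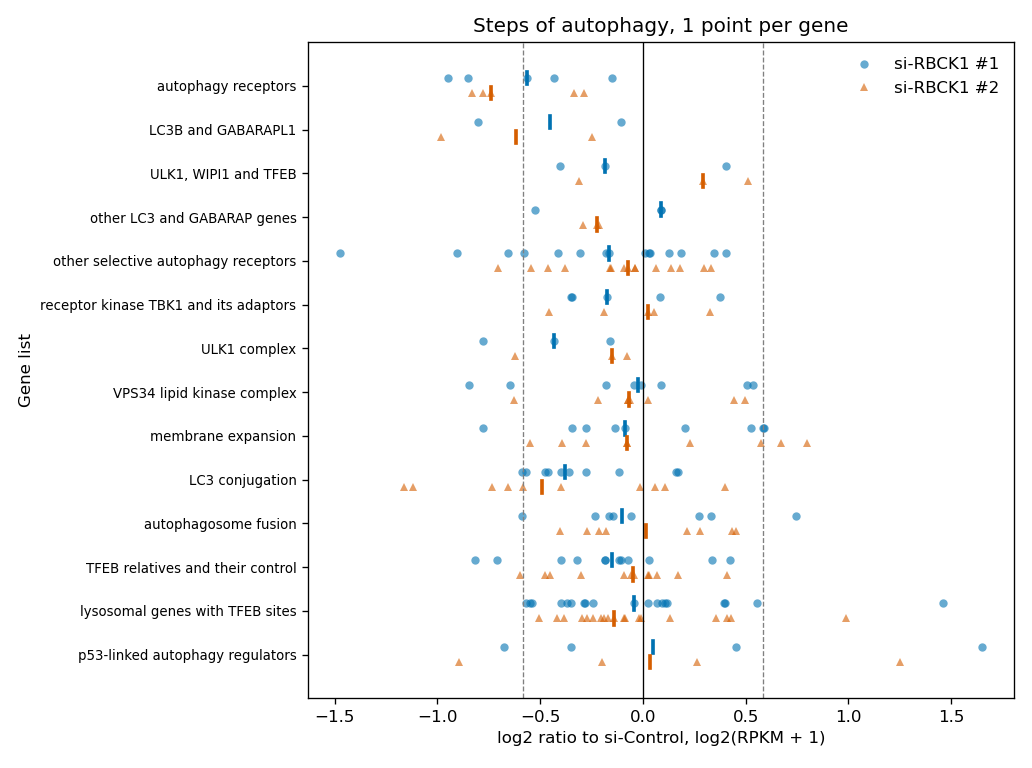
Log2 ratio to si-Control, on log2(RPKM + 1), for the genes of each list that passed the filter, 1 point per gene and siRNA, with vertical bars at the medians and dashed lines at 1.5-fold. The 5 receptors (medians -0.56 and -0.74) and the 10 conjugation genes (-0.38 and -0.49) have medians below those of all genes (0.02 and 0.03). Most other lists also have medians below those of all genes with each siRNA. The exceptions are *ULK1*, *WIPI1* and *TFEB* (-0.18 and 0.29), other LC3 and GABARAP genes (0.09 and -0.22) and p53-linked regulators (0.05 and 0.03).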

How the data were processed

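The authors deposited 1 table of RPKM values, with 1 column for each of the 3 libraries. The submitters' processing notes name FastQC, Trimmomatic, TopHat2, HTSeq and the build hg19, and the annotation and strand setting are not given in the sources used here. The table also holds the authors' fold changes, p-values and q-values, which were not used.

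Members were matched by symbol. Members and lists were chosen with earlier results of these data known, and the lists were written from general knowledge. Named genes are all members and, from each list, the highest and lowest by the mean of both log2 ratios and any gene past 2-fold, and others were named after their values were seen. Some genes of the lists are not reported here by name. Log2 ratios were computed on log2(RPKM + 1), which understates the change of low genes, for the 12400 genes whose mean reached 1 RPKM. With 1 library per condition no test was run and differences were counted by size alone. Library totals were found from RNAs of up to 200 nt, and the smallest whole reads that fit all 3 values (within 0.0001 read) were recovered for 12385 of 12400 genes (99.9%), with lengths of up to 50000 nt searched. For these reads, 95% Clopper-Pearson exact intervals were computed, which hold only the error of counting. Where the true counts are a multiple of the recovered ones, the intervals are too wide. The steps were tested on simulated data. Alternatives were pseudocounts of 0.1 and 5 RPKM, equal medians or totals, no filter or a mean of 5 RPKM or more, a 2-fold limit and ratios on reads. Promoter windows are RefSeq's (GRCh38.p14). The work was done in Python 3.11.15 with scipy 1.17.1, pandas 2.3.3, numpy 2.4.6 and, for plots, matplotlib 3.10.9.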

Additional observations from a re-analysis of the deposited data

Results flagged for a closer look

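*ULK1* was flagged because its counting intervals lay on opposite sides of si-Control with the 2 siRNAs. Its log2 ratio was -0.40 with si-RBCK1 #1 and 0.29 with si-RBCK1 #2, a difference (#2 minus #1) of 0.69. Of the list genes reported here, 9 were flagged for the same reason. The rule was run on members and list genes alone. Its share over all genes was not computed, so whether such flags are unusual was not tested. *LAMP1*, a lysosomal membrane protein gene, had log2 ratios of -0.54 and 0.13 (a difference of 0.67), *SESN2* 0.45 and -0.20 (-0.65) and *TP53INP2* -0.35 and 0.26 (0.61). The differences were -0.44 for *BCL2L13*, 0.44 for *TECPR1*, 0.32 for *FKBP8*, -0.31 for *GABARAPL2*, -0.30 for *GABARAP* and -0.21 for *CD63*. The flags were set with the library totals given above and no other scaling. The intervals of *GABARAPL2* with si-RBCK1 #1 (0.010 to 0.16) and *BCL2L13* with si-RBCK1 #2 (-0.17 to -0.026) ended near 0. With 1 library per siRNA, none of these differences was tested beyond counting error.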

How the results depend on the processing

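All 20 log2 ratios of the 10 genes kept their sign under each of the 5 alternatives run for them. Of 100 such values, 16 moved from the main ratio by at least the distance from the middle of the counting interval to its ends. That is not the same as lying outside the interval. At a 2-fold limit, 0 genes were lower with si-RBCK1 #1 and 0 with si-RBCK1 #2, but equal totals took *OPTN* with si-RBCK1 #1 (-1.01), and equal totals (-1.01) or medians (-1.03) *MAP1LC3B* with si-RBCK1 #2, past 2-fold. With a pseudocount of 0.1 RPKM, 1 gene was at least 1.5-fold higher with si-RBCK1 #2 (*TFEB*), and with equal totals 4 in place of 3 were lower with si-RBCK1 #1 (*CALCOCO2*). *TFEB* was left out with a mean of at least 5 RPKM. Of 168 list medians under alternatives, 16 moved beyond the counting error of their genes and 11 had the other sign, and the cause was not tested. No paired analysis was possible because no condition was sequenced more than once, and leaving out a library would have removed a whole condition. Depth limits *TFEB* most, whose 326 reads in si-Control leave its intervals the widest.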

Other observations

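Among 4 regulators that link p53 to autophagy, *SESN1* was the highest, at 2.68 RPKM in si-Control and 10.5 and 7.76 RPKM after siRNA #1 and #2 (log2 ratios 1.65 and 1.25). *DRAM1*, a lysosomal membrane protein gene, was the lowest, at 27.7, 17 and 14.4 RPKM (-0.68 and -0.90). These were the sole genes of the list past 1.5-fold, and the list's medians were 0.05 and 0.03. With a mean of at least 5 RPKM, which left 3 of the 4 genes, the medians were 0.45 and -0.20.

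Outside the lists, p62's partner *KEAP1*, an adaptor that marks NRF2 for degradation, was at 23.5 RPKM in si-Control and 37.0 and 37.8 RPKM after siRNA #1 and #2 (log2 ratios 0.64 and 0.67). *NFE2L2*, which encodes NRF2, was at 54.9, 38.8 and 42.3 RPKM (-0.49 and -0.37).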
